A study of Mus musculus with 16 samples.

Results

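The 10 genes described here encode the cytosolic heat shock chaperones of the mouse cortex and the factor that switches them on: Hspa1a, Hspa1b and Hspa8 of the HSP70 family, their partners Dnajb1, Hsph1 and Bag3, the HSP90 genes Hsp90aa1 and Hsp90ab1, the small heat shock protein gene Hspb1, and the transcription factor gene Hsf1. They were chosen by symbol from the 47593 genes of the count table, and all 10 were among the 16553 genes with enough counts to be tested. The rule matches symbols and uses no threshold on a value. The libraries came from the cortex of heterozygous 5xFAD mice on a C57BL/6-SJL hybrid background, which carry mutant human transgenes, APP among them, under the neuron-specific Thy1 promoter. Mice ate either a diet with rapamycin, an inhibitor of the kinase mTOR, or a vehicle diet with the microencapsulation carrier, from 2 to 5 months of age. Each of the 4 groups (females on vehicle or rapamycin, males on vehicle or rapamycin) had 4 libraries, so all 16 carried the transgenes and no mouse without them was measured. The labels call the 4 libraries of a group biological replicates, whereas the study also speaks of pooling cortical samples, so the number of animals behind a library was not settled here.

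Heat shock chaperones bind unfolded stretches of other proteins and hold, refold or pass them on for breakdown. HSF1 is held inactive by chaperones in unstressed cells, and heat, misfolded protein or oxidative stress frees it to form trimers that bind repeats of the unit GAA and its reverse complement TTC in the promoters of these genes. Neurons are known for a weak heat shock response with high constitutive levels of HSC70 (Hspa8) and HSP90, while HSP25 (Hspb1) in the brain is best known in stressed glia and vessel walls.

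The stretches of promoter that carry such units are shown because they separate the members into those with and without a match near the start, and because a pair of members is almost the same sequence. Promoter windows of 300 bases (250 before to 50 after the annotated start, RefSeq, GRCm38.p6) were given for 6 of the 10 genes, namely Hspa1a, Hspa1b, Hspb1, Dnajb1, Hsph1 and Bag3. Capitals mark the units GAANNTTC or TTCNNGAA, which are the same on both strands and were counted wherever they stood, overlaps included.
Hspa1a, chr17:34972227-34972286, minus strand: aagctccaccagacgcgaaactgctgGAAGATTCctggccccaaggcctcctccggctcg
Hspa1b, chr17:34959309-34959368, minus strand: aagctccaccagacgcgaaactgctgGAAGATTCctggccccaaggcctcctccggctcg
Hspb1, chr5:135887776-135887835, plus strand: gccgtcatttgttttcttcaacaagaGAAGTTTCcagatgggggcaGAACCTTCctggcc
Hsph1, chr5:149636337-149636396, minus strand: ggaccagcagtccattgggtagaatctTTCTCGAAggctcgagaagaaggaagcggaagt
The first base of the match lay 104 bases before the start in Hspa1a and Hspa1b (position -104), and at -117 and -97 in Hspb1. In Hsph1 matches lay at -33, in the stretch shown, and at 37 and 42 after the start. From the other annotated start of Hsph1 these same matches lay at -54, 16 and 21. Bag3 had 1 match 43 bases after its start, and Dnajb1 had 0. At least 1 match was thus found in 5 of the 6 genes with a window, and in 15.1% of all 32851 promoter windows. These are unlike units, genes against single windows. Hsph1 and Dnajb1 had 2 windows each, and Hspa1a and Hspa1b have nearly the same window. The longer TTCNNGAANNTTC, searched on both strands, was found in 0.603% of all windows and in 1 member, Hsph1, where it overlapped the shorter unit after the start. These letters are a description of the window and not evidence of binding. The windows of Hspa1a and Hspa1b were the same at 296 of 300 positions (98.7%), and the 60 bases shown were the same in both.

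Sequence sharing set how far the counts could be trusted. Of all 140-base stretches of the annotated transcripts, 41.3% of those of Hspa1a and 42.2% of those of Hspa1b also occurred in another gene, mostly in each other, so read pairs inside them could not be placed and each gene's count is uncertain. The share was 40.1% for Hspb1, all of it with the pseudogene Hsp25-ps1, 30.1% for Hsp90aa1 and 23.6% for Hspa8, and it was 0 for Dnajb1, Hsph1, Hsp90ab1, Hsf1 and Bag3. Hsp25-ps1 itself had 0 to 2 counts per library, and Gm15459, the main copy of Hspa8, had 0 in all 16. Gm12346, the main copy of Hsp90aa1, had 36 to 97. Adding Hsp25-ps1 to Hspb1 and Hspa1b to Hspa1a changed the call of no remaining member in any comparison. That sum cannot show what the sharing did to the counts. Pairs that map to several genes are dropped before counting and are not brought back by it, and Hsp25-ps1 adds at most 2 counts to Hspb1.

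Each library held between 16393501 and 20593089 assigned read pairs, and levels are given as CPM, counts scaled to the library's size with TMM factors, or, between genes, as RPKM, which also divides by exon length. The markers of cortical excitatory neurons were all detected and summed to between 1462 and 2794 CPM, against 116 to 323 CPM for striatal markers. The library labelled male rapamycin 4 had 9935 counts of Xist and 0 of 4 Y-linked genes, whereas the other 7 male libraries had at most 17 and at least 1915, so it goes against its label. Male vehicle 4 had a summed level of 1908 CPM of choroid plexus markers, against 13.2 to 319 in the other 15. Values of Hspb1, of the batches, of the member pairs and of the other chaperone lists are also given without these libraries. The labels name a batch of 11 libraries (batch 1) and one of 5 (batch 2: library 4 of each group and female rapamycin 5), and the batch term took 81.2% of the variance of the first principal component. In bulk tissue, fewer cells of a type and less RNA per cell cannot be told apart.

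The constitutive members dominated. Hsp90ab1, the constitutive cytosolic HSP90, was the highest at 545 ± 57.4 RPKM (SD, n = 16), followed by Hspa8, the constitutive HSP70, at 411 ± 75.6 and Hsp90aa1, the inducible HSP90, at 251 ± 53.9. All of them stood above the 99th percentile of the genes tested, at 99.79, 99.65 and 99.22. The co-chaperones came next. Hsph1, the HSP110 exchange factor that resets HSP70, had 43.7 ± 8.12 RPKM and Dnajb1, the HSP40 that hands clients to HSP70, had 34.3 ± 5.44. Hsf1 had 17.8 ± 3.29 RPKM and Hspb1 7.24 ± 2.52. The inducible HSP70 genes lay near the middle of the tested genes, with 3.58 ± 0.646 RPKM for Hspa1b and 3.43 ± 0.513 for Hspa1a, and so did Bag3, the exchange factor that directs HSP70 clients to autophagy, with 3.31 ± 0.854.

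By RPKM the order held in every library at the top and not at the bottom. Hsp90ab1 exceeded Hspa8, and Hspa8 exceeded Hsp90aa1, in all 16 libraries. The place of Hsp90ab1 above Hspa8 rests on the exon lengths used, 2999 and 4156 bases. In CPM, without that division, their means were 1633 and 1707. Exon length and sharing with copies (0 of the stretches of Hsp90ab1, 23.6% of those of Hspa8) act alike in all libraries, so their number does not settle that order. Hsph1 exceeded Dnajb1 in 14 of 16, Dnajb1 exceeded Hsf1 in 16, and Hspb1 exceeded Hspa1b in 15. Hspa1b exceeded Hspa1a in only 9 of 16 and Hspa1a exceeded Bag3 in 10, so these neighbours did not differ beyond their spread. Hspb1 also varied most among the members, with a coefficient of variation of 34.8% over libraries and a 3.68-fold range of RPKM, while Hsp90ab1 varied least, with 10.5% and 1.49-fold. The median over all tested genes was 21.5%.

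**Figure D1:**
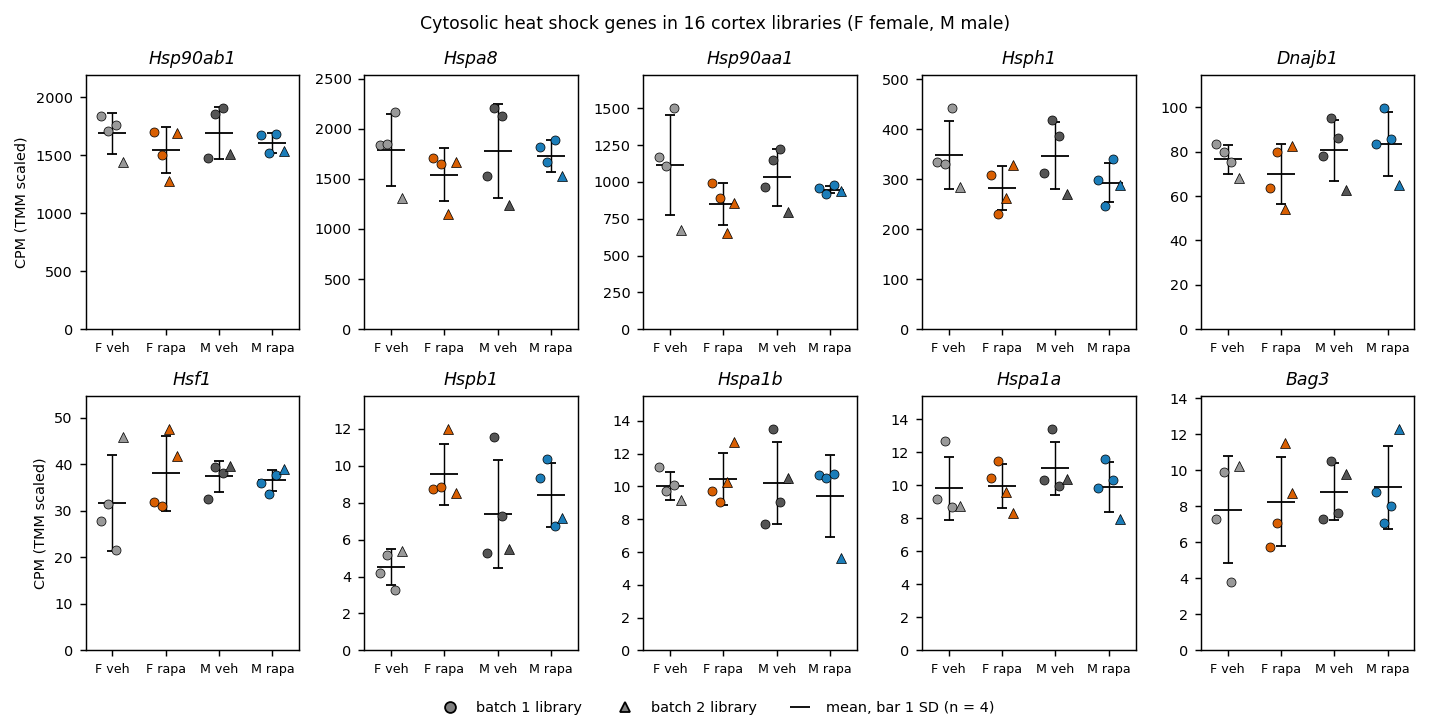
CPM of each of the 10 genes (vertical axis, from 0, its own scale per panel) in the 16 libraries by sex and diet; circles are batch 1, triangles batch 2, and the line and bar are the mean and 1 SD of 4 libraries. Hspb1 is the gene whose female rapamycin libraries (8.53 to 12.003 CPM) all stand above the female vehicle libraries (3.26 to 5.41 CPM), and for Hspa8 and Hsp90aa1 the triangles tend to lie low.

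The first comparison asked whether the rapamycin diet moved these genes with both sexes together. None of the 10 members passed an adjusted p of 0.05 in edgeR's quasi-likelihood test with terms for sex and batch, whereas 13.3% of all tested genes did and 2.26% were DEGs with at least a 1.5-fold change as well. At an unadjusted p under 0.05 there were 2 members, Hspb1 and Hsph1, beside 30.4% of all genes. The median log2 fold change of the members was -0.03 (rapamycin minus vehicle), beside 0.02 over all genes, with 3 values above 0 and 7 below. By DESeq2 with the same terms 1 member passed, Hspb1, and so did 18.9% of all genes.

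Hspb1 encodes HSP25, a small heat shock protein that holds unfolded clients and guards the actin skeleton. Its level in the vehicle libraries ran from 3.26 to 11.6 CPM with a median of 5.35, and in the rapamycin libraries from 6.76 to 12.003 CPM with a median of 8.79 (n = 8 each). Every rapamycin library exceeded the vehicle median, but the groups overlapped through male vehicle 2, at 11.6 CPM, and male vehicle 3, at 7.26 CPM. The log2 fold change was 0.62 (SE 0.20, 95% interval 0.19 to 1.05), a ratio of 1.54, with an edgeR adjusted p of 0.0520. It was positive in every alternative run, from 0.49 to 0.80, with adjusted p values from 0.00471 to 0.923. It passed without a filter on low counts (adjusted p 0.00471, where 8.68% of all genes passed) and with DESeq2 (0.0179, 18.9%). It also passed in edgeR without the library labelled male rapamycin 4 (0.69, adjusted p 0.0430, 9.44% of all genes). The same held without male vehicle 2 (0.80, 0.0215, 9%) and without male rapamycin 3 (0.71, 0.0273, 17.3%). It did not pass without male vehicle 4 (0.57, 0.102, 7.34%) or without both male vehicle 4 and male rapamycin 4 (0.62, 0.0734, 6.22%). In batch 1 alone the difference was 0.55 (adjusted p 0.145), and in batch 2 the vehicle libraries had 5.41 and 5.48 CPM against 7.16, 8.53 and 12.003 CPM with rapamycin.

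Hsph1 was the only other member with an interval that left out 0. It had 271 to 443 CPM in vehicle libraries (median 333) and 230 to 340 CPM in rapamycin libraries (median 294). The groups overlapped widely. The log2 fold change of -0.24 (SE 0.11, 95% interval -0.48 to -0.01) had an edgeR adjusted p of 0.144, and it did not pass in any alternative, where values ran from -0.39 in batch 1 alone to -0.04.

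The remaining 8 members had log2 fold changes between -0.18 and 0.07. Hsp90aa1 had 1073 ± 260 CPM in vehicle and 899 ± 108 in rapamycin libraries (SD, n = 8 each), and its log2 difference was -0.18 with an interval of -0.40 to 0.05. Hsp90ab1 and Hspa8 differed by -0.08 (-0.24 to 0.09) and -0.06 (-0.27 to 0.15). For these abundant chaperones all of the interval lay inside a 1.5-fold change in either direction (0.585 on the log2 scale). Hspa1a differed by -0.04 (-0.27 to 0.18), Hspa1b by -0.02 (-0.32 to 0.28), Bag3 by -0.02 (-0.36 to 0.31) and Dnajb1 by 0.00 (-0.19 to 0.19). Hsf1, the factor itself, had 34.5 ± 7.72 CPM in vehicle and 37.3 ± 5.52 CPM in rapamycin libraries, a log2 fold change of 0.07 (-0.14 to 0.28). The sign of Hspa1a, Hspa1b, Dnajb1 and Bag3 turned in some alternatives, and none of their values passed in any.

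The second comparison took the sexes apart, since both were given each diet. In females no member passed (0.0121% of all genes did), and at an unadjusted p under 0.05 there was 1 member, Hspb1, beside 23.1% of all genes. The female vehicle libraries had 4.20, 5.15, 3.26 and 5.41 CPM of Hspb1, and the female rapamycin libraries had 8.72, 8.86, 12.003 and 8.53 CPM. The groups did not overlap, and the lowest rapamycin library lay well above the highest vehicle library. The groups of no other member were apart, beside 5.78% of all tested genes in either direction and 2.13% of all with rapamycin higher. The log2 fold change of Hspb1 was 1.09 (SE 0.26, 95% interval 0.55 to 1.63), a ratio of 2.13, with an edgeR p of 5.2e-04 and an adjusted p of 0.0645. DESeq2 gave 1.09 with an adjusted p of 0.00349 (9.08% of all genes passed), a fit without the filter 7.9e-05 (5.55%), batch 1 alone 1.07 and 0.0524, and all alternatives lay between 0.96 and 1.27, with adjusted p values from 7.9e-05 to 0.999. It also passed in edgeR without female vehicle 4 (0.0492, where 1.39% of all genes passed) or female rapamycin 4 (0.0259, 12.6%). The same held without any of the male rapamycin libraries 2 (0.0384, 2.74%), 3 (0.0497, 1.08%) and 4 (0.0451, 2.07%), which enter through the shared spread. In each of these fits the share of all genes called rose from 0.0121%, so the passes are not particular to Hspb1.

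In males no member passed an adjusted or an unadjusted p of 0.05, beside 0% and 12% of all genes, and DESeq2 likewise called none. The male vehicle libraries had 5.29, 11.6, 7.26 and 5.48 CPM of Hspb1, and the male rapamycin libraries 9.33, 10.4, 6.76 and 7.16 CPM, the last from the library whose Xist goes against its label. The highest of the 8 was a vehicle library and the groups overlapped, as they did for every member in males (6.13% of all genes did not). The log2 fold change was 0.18 (SE 0.25, interval -0.34 to 0.70, adjusted p 0.781). It was 0.26 (0.811) without the library labelled male rapamycin 4 and 0.49 (0.605) without male vehicle 2.

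The difference between the sexes was tested itself. For Hspb1 the effect in females exceeded that in males by 0.91 (SE 0.35, log2 scale, interval 0.17 to 1.65), with an edgeR p of 0.0195 and an adjusted p of 0.999, so it did not pass over all genes. At an unadjusted p under 0.05 it was the 1 member, beside 2.17% of all genes, and no gene passed after adjustment (0%). Without male vehicle 2 the difference was 0.59, without the library labelled male rapamycin 4 it was 0.81 (adjusted p 0.997), and without both that library and male vehicle 4 it was 0.89. On the vehicle diet Hspb1 was lower in females than in males by a log2 value of -0.72 (SE 0.25, p 0.0112, adjusted p 0.999, beside 0.0121% of all genes called), and by -0.42 without male vehicle 2 and -0.87 without male vehicle 4 (adjusted p 0.998). DESeq2 called no member in either comparison, and no other member reached an unadjusted p of 0.05 (3.55% of all genes did on the vehicle diet).

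Other cell types were followed beside the Hspb1 values. All 5 endothelial markers were detected, with summed levels of 196 to 254 CPM in female vehicle and 203 to 301 CPM in female rapamycin libraries. All 6 markers of mural cells, the muscle and pericyte cells of vessel walls, summed to 109 to 190 and 120 to 235 CPM, and all 5 astrocyte markers to 1254 to 1655 and 1318 to 1496 CPM. These ranges overlapped. All 6 oligodendrocyte markers summed to 3650 to 5911 and 4187 to 9465 CPM, and the 5 hemoglobin and erythroid markers to 1.91 to 16.4 and 5.31 to 26.7 CPM, overlapping as well. The 5 microglial markers summed to 424 to 553 CPM in female vehicle and 343 to 383 CPM in female rapamycin libraries, which did not overlap. The part of these cell types in the Hspb1 values was not tested.

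**Figure D2:**
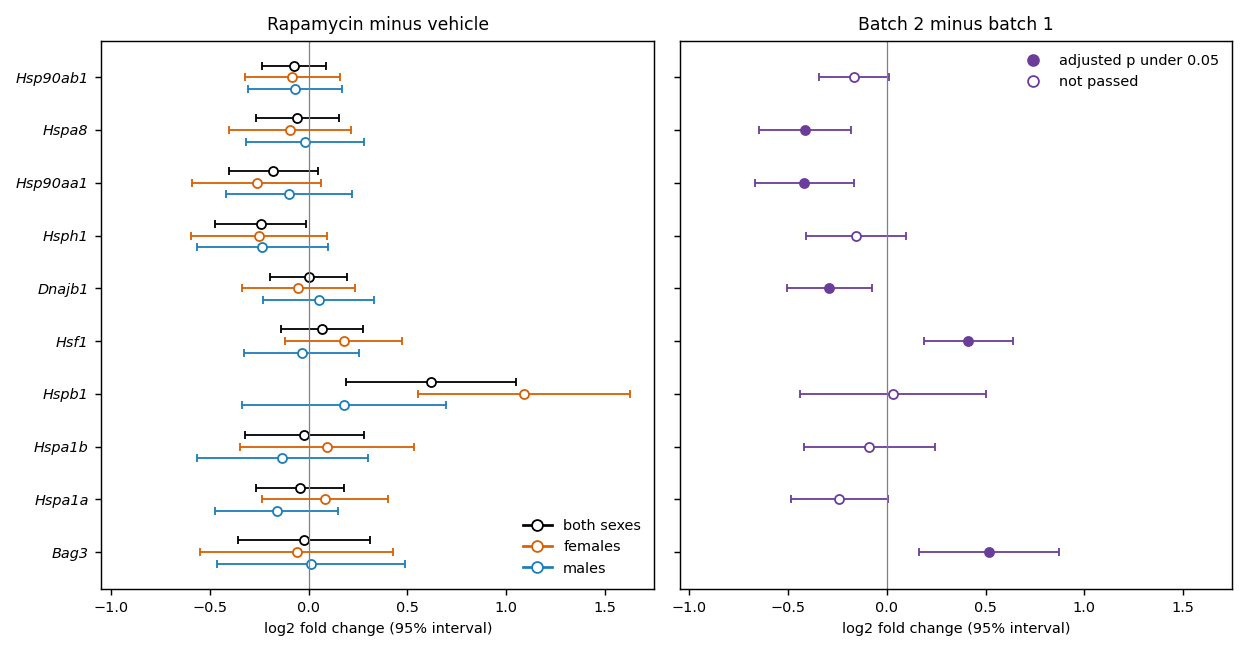
Log2 fold changes with 95% intervals for the 10 genes, rapamycin minus vehicle in both sexes, females and males (left) and batch 2 minus batch 1 (right); filled points passed an adjusted p of 0.05. No point is filled on the left, where Hspb1 in females lies at 1.09, and 5 are filled on the right.

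More members passed between the labelled batches than between diets. Of the 10, 5 passed between batches (35.5% of all genes did), 3 of them lower in batch 2 (16.5%) and 2 higher (19.1%), and none reached 1.5-fold (12.9%). No member's batches failed to overlap, beside 7.21% of all genes. Hspa8, Hsp90aa1 and Dnajb1 were lower in batch 2. Hspa8 had 1857 ± 225 CPM in batch 1 (SD, n = 11) and 1378 ± 215 CPM in batch 2 (n = 5), and 3 of the 5 batch 2 libraries lay below every batch 1 library. Its log2 difference was -0.42 (SE 0.11, edgeR adjusted p 0.00755). Hsp90aa1 had 1077 ± 179 and 785 ± 121 CPM, with 4 of 5 libraries below all of batch 1, and differed by -0.42 (SE 0.12, adjusted p 0.0111). Dnajb1 differed by -0.29 (SE 0.10, adjusted p 0.0351), with 82.7 ± 9.69 CPM in batch 1 and 66.5 ± 10.4 CPM in batch 2.

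Hsf1 and Bag3 were higher in batch 2. Hsf1 had 32.8 ± 5.14 CPM in batch 1 and 42.7 ± 3.81 CPM in batch 2, and 4 of the 5 batch 2 libraries exceeded every batch 1 library. Its log2 difference was 0.41 (SE 0.11, adjusted p 0.00665). Bag3 had 7.56 ± 1.84 and 10.5 ± 1.41 CPM, a difference of 0.52 (SE 0.17, adjusted p 0.0236). Hspa1a (-0.24), Hsp90ab1 (-0.17), Hsph1 (-0.16), Hspa1b (-0.09) and Hspb1 (0.03) did not pass, with adjusted p values from 0.117 to 0.932.

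The number of members called between batches varied with the libraries. There were 2 without female vehicle 4 (25.4% of all genes) and 2 without male vehicle 4, the library with choroid plexus markers (27.7%). There were 3 without female rapamycin 4 (25.7%), 3 without the library labelled male rapamycin 4 (36.8%), and 2, Hsp90aa1 and Hsf1, without both of these male libraries (29.3%). Of the 16 fits that left out 1 library, Hsf1 passed in 16, Hspa8 in 15, Hsp90aa1 in 14, Bag3 in 13 and Dnajb1 in 8. The slope of a library's log2 levels on log2 exon length was followed as well. It ran from -0.127 to 0.0640 in rapamycin and from 0.000395 to 0.100 in vehicle libraries. The slope comes from the counts themselves, and whether it reflects RNA quality or something else was not tested. With that slope as a covariate 1 member passed between batches, Hspa8 (-0.43, SE 0.14, adjusted p 0.0487), beside 12.6% of all genes. Hsp90aa1 had -0.45 (SE 0.15, adjusted p 0.0560), Hsf1 0.39 (SE 0.15, 0.0908), Bag3 0.53 (SE 0.24, 0.148) and Dnajb1 -0.20 (SE 0.13, 0.319), each with a larger SE than without the covariate. In the same model no gene passed for treatment, and Hspb1 had 0.49 (SE 0.31). Its part in the batch and diet differences was not tested beyond that.

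The members were then compared with each other over the 16 libraries, in all 45 pairs, on log2 CPM that share each library's scaling. After Benjamini-Hochberg adjustment 9 pairs passed the permutation test of Pearson's r, 8 of them positive, and 9 passed for Spearman's rho. What share of pairs of other tested genes correlate as strongly was not tested, so the count is not a trait shown to be particular to these genes. All 6 pairs among Hsp90ab1, Hspa8, Hsp90aa1 and Hsph1, a set of 4 named after the values were seen, were among them. The closest were Hspa8 with Hsp90aa1 (r = 0.90, adjusted permutation p = 0.000225, rho = 0.87, adjusted p = 0.000450) and Hspa8 with Hsp90ab1 (r = 0.90, 0.000225, rho = 0.90, 0.000450), whose raw p of 1e-05 is the smallest that 100000 permutations can give. Leaving out the 2 libraries farthest from the Hspa8 median gave 0.87 for both. The lowest of the 6 was Hspa8 with Hsph1 (r = 0.74, adjusted permutation p = 0.00512, rho = 0.84, adjusted p = 0.000675).

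Centring each gene on its batch mean, with permutation within batches, left 7 pairs past the threshold, all positive, and 6 of them also passed as measured. These 6 were the pairs among the abundant chaperones, with r from 0.74 to 0.87 after centring. In batch 1 alone (n = 11) r ran from 0.72 to 0.87, and Hsp90aa1 with Hsp90ab1 had an adjusted permutation p of 0.0723. The other 3 pairs that passed as measured did not pass after centring. Hsf1 with Hsp90aa1 had r = -0.77 as measured (adjusted permutation p = 0.00390, rho = -0.65, adjusted p = 0.0406, -0.53 without 2 libraries) and -0.57 after centring (0.142). Hsf1 with Bag3 went from 0.83 (0.00270, rho = 0.74, adjusted p = 0.00977, 0.68 without 2 libraries) to 0.73 (0.0543) and 0.80 in batch 1 alone (0.0568), and Hspa8 with Dnajb1 from 0.73 (0.00760, rho = 0.66, adjusted p = 0.0386, 0.49 without 2 libraries) to 0.48 (0.264). Hspb1 went the other way with Hsf1, from 0.59 (adjusted permutation p = 0.0586, rho = 0.44, adjusted p = 0.325) to 0.71 after centring (0.0181) and 0.77 in batch 1 alone (0.0336), while without the 2 libraries farthest from the Hspb1 median r was 0.16 as measured and 0.43 after centring. The other 3 pairs, centred and without 2 libraries, had r = -0.09 (Hsf1 with Hsp90aa1), 0.20 (Hsf1 with Bag3) and 0.20 (Hspa8 with Dnajb1). The 6 pairs among the abundant chaperones had r from 0.66 to 0.91 in that setting. Without male rapamycin 4 and male vehicle 4 (n = 14) 9 pairs passed as measured, all 9 of them among those above, and 9 passed after centring.

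Of the inducible genes that share HSF1 as their textbook activator, Hsph1 with Hsp90aa1 passed (r = 0.77, adjusted permutation p = 0.00411, rho = 0.84, adjusted p = 0.000975). Hspa1a and Hspa1b, with nearly the same promoter window, had r = 0.37 (adjusted permutation p = 0.335, rho = 0.11, adjusted p = 0.740), and read pairs inside the stretches they share could not be placed. Hspb1 had r between -0.43 and 0.43 with each of the inducible genes Hspa1a, Hspa1b, Dnajb1, Hsph1, Hsp90aa1 and Bag3, and no adjusted permutation p was under 0.231. Hspa1a plus Hspa1b summed to 20.5 ± 3.00 CPM in vehicle and 19.9 ± 2.62 CPM in rapamycin libraries (SD, n = 8 each).

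**Figure D3:**
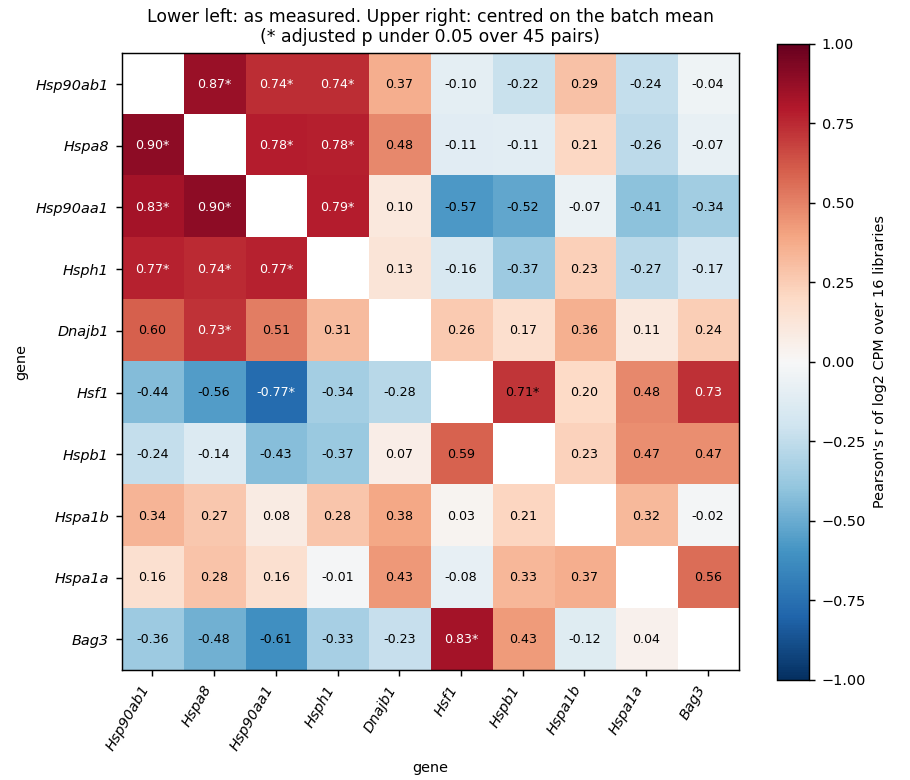
Pearson's r of log2 CPM over 16 libraries for each pair of the 10 genes, as measured (lower left) and centred on the batch mean (upper right), with stars for an adjusted p under 0.05 over 45 pairs. The block of Hsp90ab1, Hspa8, Hsp90aa1 and Hsph1 is starred on both sides, and Hsf1 with Hsp90aa1 (-0.77) is starred on the lower left.

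The genes most like the inducible members were ranked by r with the mean of the z-scored, batch-centred log2 CPM of Hspa1a, Hspa1b, Dnajb1, Hsph1, Hsp90aa1, Hspb1 and Bag3, over 16 libraries and 11723 genes of at least 5 CPM, with no test. They were Cx3cl1 (0.85), Rcc2 (0.83), Serping1 (0.83), Fscn1 (0.81) and Nfil3 (0.80). The members' own r with that mean ran from 0.17 for Hsp90aa1 to 0.63 for Dnajb1.

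Around the members, 9 lists of other chaperones and their regulators held 77 tested genes, of which 14 passed for treatment with both sexes (18.2%, beside 13.3% of all genes), 10 higher and 4 lower, with a median log2 fold change of 0.08. The count depended on the batch term, with 0 of the 77 without it (0.858% of all genes). It was 4 with DESeq2 on treatment alone (6.84%) and 6 with replicate number in place of batch (7.84%). Batch 1 alone gave 11 (7.45%), and DESeq2 with the same terms 16 (18.9%). Leaving out single libraries gave from 1 of the 77 (without female rapamycin 1, where 4.26% of all genes passed) to 20 (without female rapamycin 4, 20%). There were 3 without male rapamycin 2 (5.85%), 4 without female rapamycin 2 (5.15%), 8 without male vehicle 4 (7.34%), 9 without male vehicle 2 (9%), 12 without the library labelled male rapamycin 4 (9.44%) and 7 without both of the doubted male libraries (6.22%), where Hspa4, Hspa12a, Bag1, Pfdn6 and Pdia4 still passed. The shares of all genes that fell and that rose are not given apart here, so the counts by direction within each list are descriptions without a base. In the list of other cytosolic HSP70 and HSP110, 2 of 7 fell and none rose, with a median of -0.34. Hspa4, an HSP110 like Hsph1, had 286 ± 35.6 CPM in vehicle and 219 ± 28.4 CPM in rapamycin libraries (SD, n = 8 each) and fell by 0.37 on the log2 scale (SE 0.09, edgeR adjusted p 0.0206). Hspa12a, a distant HSP70 relative, went from 271 ± 26.6 to 199 ± 47.1 CPM and fell by 0.46 (SE 0.12, adjusted p 0.0254). Of the 10 J-domain co-chaperones, partners that like Dnajb1 stimulate HSP70, 2 fell and none rose. They were the synaptic members Dnajc6, the auxilin that uncoats clathrin vesicles (-0.33, adjusted p 0.0343), and Dnajc5, the cysteine string protein (-0.21, 0.0498).

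Of the 14 genes of the TRiC chaperonin and prefoldin, which fold actin and tubulin, 5 rose and none fell. All 5 were prefoldin subunits, among them Pfdn4 (0.56, edgeR adjusted p 0.0266), Pfdn5 (0.40, 0.0235) and Pfdn6 (0.38, 0.0212). No TRiC subunit passed, with values from -0.06 (Cct6a) to 0.08 (Cct7). Bag1, an HSP70 exchange factor that unlike Bag3 leads to the proteasome, went from 100.1 ± 14.1 to 124 ± 25.2 CPM and rose by 0.36 (SE 0.09, adjusted p 0.0183), the 1 riser of 8 in its list. Hsbp1, a small protein that binds and restrains HSF1, rose by 0.38 (adjusted p 0.0364), 1 of 3 heat shock factors and regulators. Tomm34, a partner of HSP70 and HSP90, was the 1 of 14 HSP90 co-chaperones to pass (0.22, 0.0371). Hspe1, the mitochondrial HSP10 (0.30, 0.0254), and Pdia4, a disulfide isomerase of the endoplasmic reticulum (0.46, 0.0323), were the 1 riser of 6 and of 10 in theirs. None of the 5 tested small heat shock proteins beside Hspb1 passed, though all 5 had values above 0 with a median of 0.26, and Hspb8, the partner of Bag3, had 0.26 (adjusted p 0.151). None of the 10 immediate early genes, followed because handling and neuronal activity raise them, passed (median 0.26, Junb 0.41 with adjusted p 0.276).

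The same lists differed between batches. Of the 77 genes 41 passed (53.2%, beside 35.5% of all genes), 39 of them lower in batch 2, beside 29 without male vehicle 4 (27.7%) and 34 without that library and male rapamycin 4 (29.3%). In the fit of all libraries, all 14 genes of the TRiC and prefoldin list were lower in batch 2, with a median of -0.47. Bag1 (-0.40, edgeR adjusted p 0.00382), Hsbp1 (-0.48, 0.00674) and Pfdn5 (-0.80, 0.000140), which rose with rapamycin, were lower in batch 2, while Hspa4 (-0.09, 0.528) and Hspa12a (0.06, 0.756) did not pass between batches. With the exon length slope as a covariate no gene passed for treatment, these included. In females alone none of the 77 passed, beside 8 by DESeq2 (9.08% of all genes), 9 without the low-count filter (5.55%) and 13 without female rapamycin 4 (12.6%). In males alone none of the 77 passed, with DESeq2 as well, and 1 did without the filter (1.74%).

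**Figure D4:**
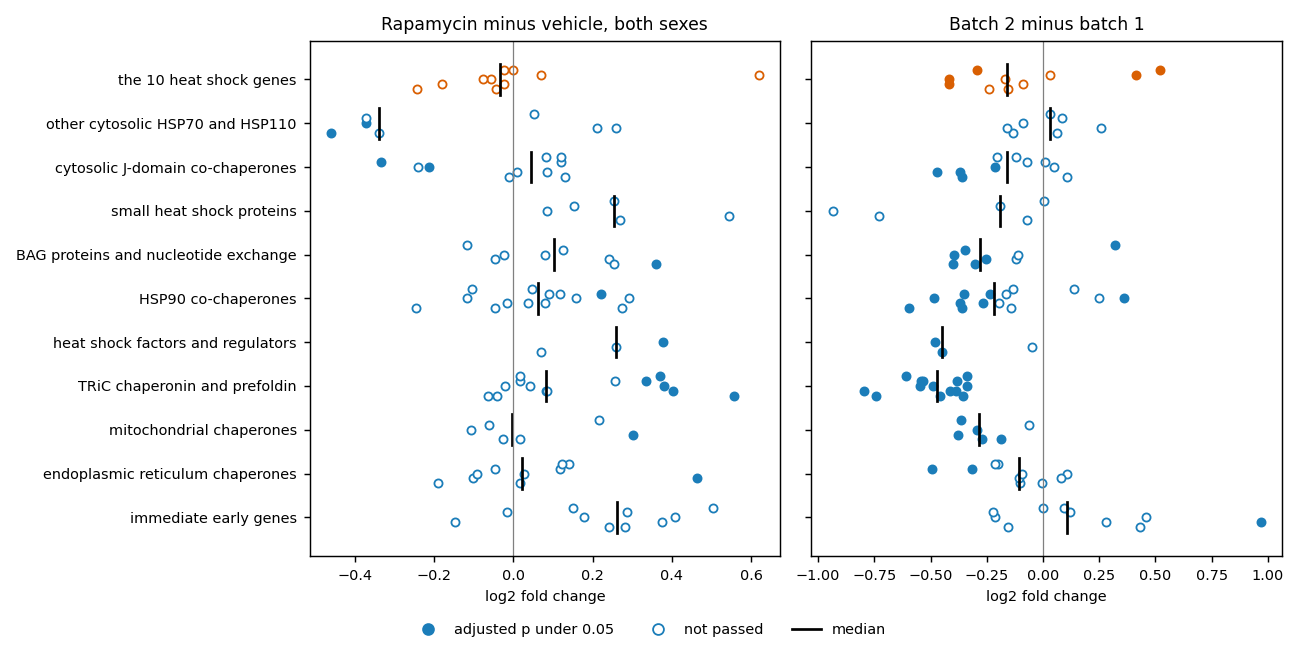
Log2 fold changes of the 10 genes (orange) and of genes in 10 other lists (blue), rapamycin minus vehicle (left) and batch 2 minus batch 1 (right); filled points passed an adjusted p of 0.05 and black lines are medians. All 14 genes of the TRiC and prefoldin list lie below 0 on the right, and the 10 heat shock genes centre at -0.03 on the left.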

How the data were processed

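Poly(A) RNA of 16 cortex libraries was sequenced as 150 bp pairs. The authors deposited raw counts of read pairs per gene, made per the labels and methods with FastQC 0.11.9, Trimmomatic 0.39 (Trim Galore is also named), HISAT2 2.2.1 on GRCm38 (mm10) and featureCounts 2.0.3 with Ensembl genes. The deposited tables per group held 0 differing cells. Pairs that map to several genes are dropped by these tools' defaults, and strand use is not given in the sources used here.

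Counts were scaled with TMM factors, filtered with filterByExpr (minimum count 10) and tested with edgeR 4.0.16 in R 4.3.3 by the two-sided quasi-likelihood test, with Benjamini-Hochberg adjustment over 16553 genes. The fit of both sexes had sex, batch and diet as terms, and the other comparisons came from a fit of the 4 groups with batch. DEGs had adjusted p under 0.05 with 1.5-fold or larger change. Log2 CPM used a prior count of 2. Correlations used 100000 permutations in NumPy 2.4.6. DESeq2 1.42.0 and other settings were run as alternatives, and leaving out male rapamycin 4 with male vehicle 4 and summing near-identical copies were chosen after seeing the data. The fits were tested on simulated data. The members and lists were chosen with earlier results of these data known. Named beside the members were up to 3 genes of each list past the threshold for treatment (or the 1 of smallest p), and the 5 genes most like the inducible members.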

Additional observations from a re-analysis of the deposited data

Results flagged for a closer look

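In 40 groups of 4 libraries (10 genes, 4 groups), 5 held a library whose gap to the nearest other over the group's range exceeded Dixon's 95% critical value, where chance gives about 1 in 20 groups. Hspb1 in female rapamycin 4, at 12.003 CPM, stood above 8.53 to 8.86 CPM in the other 3. Without it the female difference was 0.96 on the log2 scale. Hspa8 in the same library was low, at 1146 CPM against 1644 to 1709 CPM. Hspa1a was high in female vehicle 2, at 12.7 CPM against 8.71 to 9.19 CPM, and in male vehicle 2, at 13.4 CPM against 9.97 to 10.4 CPM. Hspa1b was low in the library labelled male rapamycin 4, at 5.66 CPM against 10.5 to 10.7 CPM. No member moved in opposite directions in all libraries of both sexes.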

How the results depend on the processing

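For single members 628 values from the alternatives were compared with those above, each for a gene in a comparison under a setting. Many came from the same fit and are not separate analyses. Of these values, 558 kept direction and side of the threshold, 13 passed that had not, 21 no longer passed, and 36 changed sign, none of which passed. The number of members called for both sexes rose from 0 to 1 (Hspb1) without a low-count filter and with DESeq2 (2626 and 3131 of all genes passed there, against 2205), and was 0 to 1 when single libraries were left out. In females it likewise rose to 1 in both, and was 0 to 1. Between batches it fell from 5 to 1 with the exon length slope and to 2 without male rapamycin 4 and male vehicle 4, and was 2 to 6 when single libraries were left out (4265 to 6211 of all genes). Of 45 member pairs, 9 passed, 7 centred on batch, 6 in batch 1, 11 with DESeq2 size factors and 9 without both male libraries.

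Signs turned as follows, for both sexes unless named. Dnajb1 was -0.0356 with DESeq2 on treatment alone, -0.0392 without the batch term, -0.0359 in batch 1, -0.122 with the slope and -0.0249 without male rapamycin 4 and male vehicle 4 (-0.0609 to 0.0546 without single libraries). Bag3 was 0.0574 with DESeq2 on treatment alone and 0.0625 without the batch term (-0.105 to 0.0689). Hspa1a was 0.00116 in batch 1 and 0.0098 without both of those libraries (-0.0818 to 0.00639). Hspa1b was 0.0814 with the slope and 0.0487 without both (-0.0875 to 0.0561). Hsph1 in females was 0.0195 with the slope. Between batches Hspa1b was 0.0941 without both (-0.197 to 0.0756), and Hspb1 was -0.121 to 0.168 without single libraries.

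No label says that a replicate number marks a shared animal, litter or day. Of the batch 1 libraries, 12 of 15 same-number pairs correlated above 0.1 (-0.157 to 0.506, other numbers -0.167 to 0.406). Over both batches, 12 of 16 libraries correlated best with their own number. The libraries numbered 4 among them also share batch 2, and female rapamycin 5 has no partner of its number, so that count mixes number with batch. With the replicate block in place of batch, Hspb1 was 0.60 (adjusted p 0.0712) for both sexes and 1.08 (0.0949) in females, Dnajb1 was -0.0714, 0 members passed, and calls over all genes went from 2205 to 1298.

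Counts over all genes moved most. For both sexes 2205 became 1133 with DESeq2 on treatment alone, 142 without batch, 1240 in batch 1, 0 with the slope, 1040 without male rapamycin 4 and male vehicle 4 and from 719 (without female rapamycin 1) to 3352 (without female rapamycin 4). In females 2 became 1678 without the filter, 1503 with DESeq2, 1290 in batch 1, 1 without batch or with the slope, and 1 to 2104 without single libraries, 2104 without female rapamycin 4. In males 0 became 526 without the filter, 27 with DESeq2 and 1 with the block. The sex difference in effect went from 0 to 87 without the filter. Sex on vehicle went from 2 to 144 without the filter, 9 with DESeq2, 6 in batch 1 and without male rapamycin 4 and male vehicle 4, 1 without batch or with the slope, 0 with the block, and 0 to 6 without single libraries. Batch went from 5884 to 2083 with the slope. The cause was not tested. Hspb1 rests on 60 to 231 counts per library, so counting alone limits its precision more than that of Hspa8, with 20722 to 44136.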
